A study of Mus musculus with 8 samples.

Results

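The Lrrc8 genes encode the subunits of the volume-regulated anion channel, and the 5 of them, Lrrc8a to Lrrc8e, are described here in mouse Ly-6C-high monocytes taken from the blood and from the spleen. They were found as the probes that the array's own annotation names Lrrc8a, Lrrc8b, Lrrc8c, Lrrc8d or Lrrc8e, which gave 8 probes for 5 of the 28786 names on the array. The family was chosen by its measured values, because the Lrrc8c probe had one of the lower differences between spleen and blood in the authors' value table. The contrast between the tissues is therefore given for the 5 genes as a description, with no test.

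Cells of both groups came from healthy, untreated female C57BL/6 mice on chow, aged 8 to 12 weeks, with 4 samples from blood and 4 from spleen. Cells with much CD11b and Ly-6C were sorted, 1000 per sample, against the lymphocyte and NK cell antigens B220, CD90, NK1.1 and CD49b, the granulocyte antigen Ly-6G, and I-Ab, CD11c and an antigen of macrophages. According to the labels the cells came from a group of 4 mice, but none of them ties a sample number to a mouse. No pairing was therefore assumed, and the errors measure the spread between these samples.

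When an animal cell swells, volume-regulated anion channels open and let chloride and small organic osmolytes leave, and water follows. LRRC8A is the subunit that every such channel needs at the cell surface, and it assembles with LRRC8B, LRRC8C, LRRC8D or LRRC8E, which set what the pore lets through. Besides chloride and taurine, these channels carry the immune second messenger cGAMP between cells, and in macrophages LRRC8A has been tied to activation of the NLRP3 inflammasome by hypotonic medium.

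Lrrc8c encodes a partner subunit that forms chloride and cGAMP-conducting channels with LRRC8A. In these monocytes, its 4 spleen values in the authors' value table lay below its 4 blood values, with a mean 2.48-fold lower in spleen. Of all 25471 probes tested, 371 (1.46%) had spleen values wholly below blood. Lrrc8a, Lrrc8b, Lrrc8d and Lrrc8e overlapped between the tissues on every probe of that table. With the deposited scanner files, 3 of which hold other blood arrays than the table, Lrrc8c overlapped too. Transcript of each of the 5 genes was above the background level on at least 1 probe in all 8 samples. In bulk samples, fewer cells of a type and less RNA per cell cannot be told apart.

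Each probe is a stretch of 60 bases, and the family's genes are related in sequence, so the probes were compared with each other. Whether a probe also binds the transcript of another member was not tested, as no probe was set against transcript sequences. The probe of Lrrc8c and the brightest probe of Lrrc8e were the pair with the most matching bases in the family, and they are shown because the tissues did not overlap for the first and overlapped for the second. Capitals mark the bases that match when the pair is aligned without gaps.
Lrrc8c: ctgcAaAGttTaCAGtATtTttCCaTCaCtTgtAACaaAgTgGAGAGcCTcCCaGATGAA
Lrrc8e: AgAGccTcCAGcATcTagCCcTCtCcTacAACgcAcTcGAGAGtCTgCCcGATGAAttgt
Of 56 aligned bases, 36 matched and 20 differed. The longest run that the pair shared at any position was 9 bases, and it lies outside this alignment. The next most alike pair of member probes had 25 matching bases. Among the other 41173 probes of the array, 10 shared a run of 12 or more bases with the Lrrc8c probe, the longest such run was 14 bases, and none of these 10 was a member. On the build mm7, the Lrrc8c probe lies on the plus strand at chr5:104785487-104785546 and the Lrrc8e probe on the plus strand at chr8:4200138-4200197. No exon annotation of that build was used here, so whether a probe lies in a coding or an untranslated part is not stated.

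The values that follow are log2 signals of the value table, in which 6.80 was taken as the background level, and ± is the SD over 4 samples. Levels of different probes are not set against each other, because each probe has its own brightness. The moderated SE and the 95% interval of each difference, spleen minus blood, come from a limma fit over all 25471 probes that were at or above the background level on at least 4 arrays.

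Lrrc8a, which encodes the obligatory subunit, was read by 1 probe at chr2:30270878-30270937. Its log2 signal was 9.82, 9.51, 10.11 and 9.25 in blood samples 1 to 4, a mean of 9.67 ± 0.37 (SD, n = 4). In spleen samples 1 to 4 it was 8.46, 9.20, 8.51 and 9.85, a mean of 9.01 ± 0.65 (SD, n = 4). Spleen 1, 2 and 3 lay below every blood sample, while spleen 4 lay above blood 1, 2 and 4. The difference was -0.66 with an SE of 0.35 and an interval of -1.45 to 0.12.

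Lrrc8c was read by the probe printed above. Its log2 signal in blood samples 1 to 4 was 9.18, 9.45, 9.01 and 8.62, a mean of 9.06 ± 0.35 (SD, n = 4). In spleen samples 1 to 4 it was 8.37, 7.59, 7.45 and 7.61, a mean of 7.75 ± 0.41 (SD, n = 4). Spleen 2, 3 and 4 lay close together, and spleen 1, the highest of its group, was still below blood 4, the lowest of the blood samples. The difference was -1.31 with an SE of 0.28 and an interval of -1.94 to -0.68. All 5 arrays whose scanner file matches the table had the spot well above background.

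Lrrc8d, whose product lets the channel pass larger and uncharged molecules such as taurine and platinum drugs, was read by 1 probe at chr5:104991906-104991965. In blood samples 1 to 4 its log2 signal was 11.43, 11.37, 11.03 and 11.06, with a mean of 11.22 ± 0.21 (SD, n = 4). In spleen samples 1 to 4 it was 11.15, 11.001, 10.25 and 11.09, with a mean of 10.87 ± 0.42 (SD, n = 4). Spleen 3 stood below the other 7 samples, which lay between 11.001 and 11.43. The difference of -0.35 had an SE of 0.26 and an interval of -0.93 to 0.23.

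Lrrc8b, another partner subunit of LRRC8A, was read by a pair of probes 1107 bases apart. At chr5:104663055-104663114, the log2 signal of the first was 8.21, 8.29, 10.58 and 9.28 in blood and 8.37, 8.59, 9.25 and 9.11 in spleen, in sample order. Blood 3 alone set the height of the blood mean, 9.09 ± 1.11 (SD, n = 4) against 8.83 ± 0.42 in spleen (SD, n = 4). Its difference was -0.26 with an interval of -1.38 to 0.86, and it was 0.24 without blood 3.

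The second Lrrc8b probe, at chr5:104664222-104664281, had log2 signals of 8.49, 9.25, 9.67 and 8.38 in blood, a mean of 8.95 ± 0.61 (SD, n = 4). In spleen they were 6.91, 8.17, 8.06 and 8.98, a mean of 8.03 ± 0.85 (SD, n = 4). Spleen 1 lay near the background level, and spleen 4 lay among the blood samples. The difference was -0.92 with an SE of 0.45 and an interval of -1.93 to 0.10, so the probes of this gene gave differences of unequal size with intervals that overlap.

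Lrrc8e, whose product with LRRC8A favours charged organic molecules such as aspartate and cGAMP, was read by 3 probes. The probe printed above had log2 signals of 8.65, 7.66, 8.30 and 8.51 in blood and 8.56, 7.84, 8.21 and 8.41 in spleen, in sample order. The means were 8.28 ± 0.44 and 8.26 ± 0.31 (SD, n = 4 each), and the difference was -0.03 with an interval of -0.65 to 0.60. Sample 2 was the lowest in both tissues.

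Another Lrrc8e probe lies at chr8:4191253-4195968, a span of 4716 bases for 60 bases of probe, so its parts are apart in the genome. It gave 8.23, 7.68, 7.92 and 7.99 in blood and 8.36, 7.87, 7.67 and 7.92 in spleen on the log2 scale. The means were 7.95 ± 0.23 and 7.96 ± 0.29 (SD, n = 4 each), with a difference of 0.00 and an interval of -0.52 to 0.53. The last Lrrc8e probe, at chr8:4200739-4200798, lay between 6.36 and 6.71 in all 8 samples, below the background level, and was not tested.

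**Figure D1:**
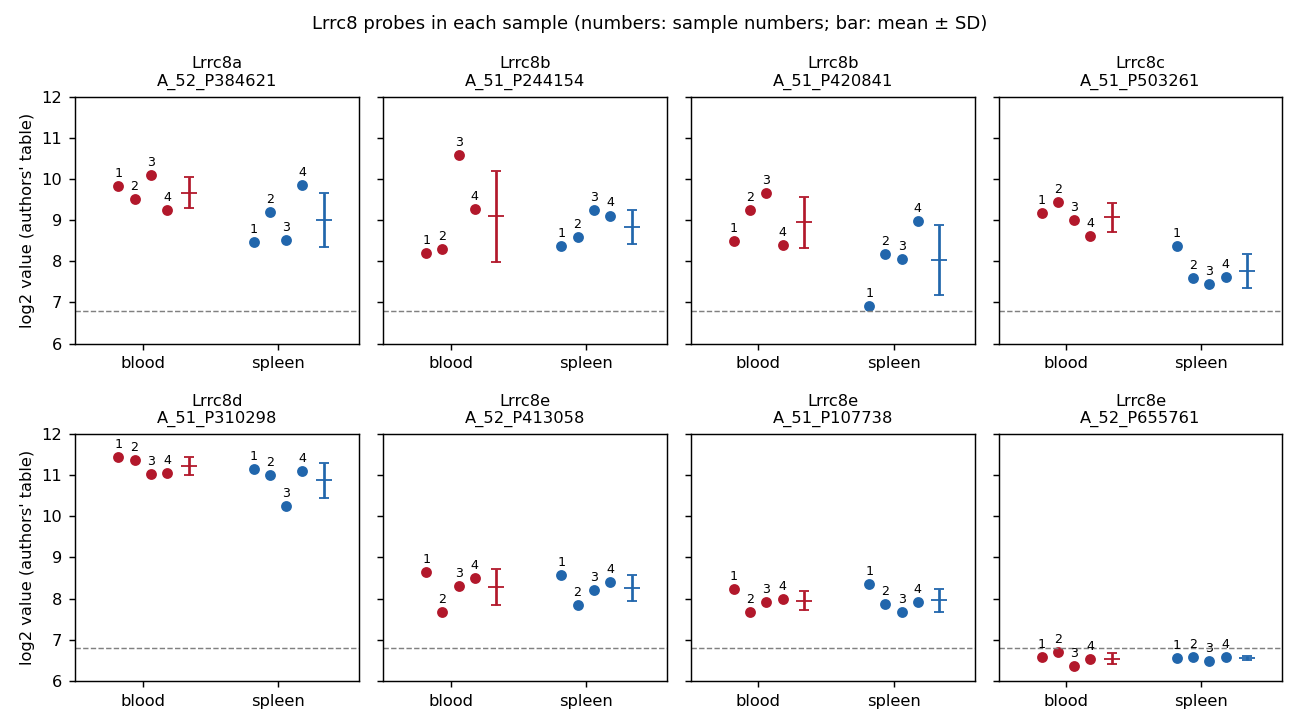
Each panel plots the log2 signal of 1 Lrrc8 probe in the authors' value table (vertical axis) for the 4 blood samples in red and the 4 spleen samples in blue, with the sample numbers beside the points, bars for the mean ± SD and a dashed line at the background level of 6.80. In the Lrrc8c panel every spleen point (7.45 to 8.37) lies below every blood point (8.62 to 9.45), and in all other panels the tissues overlap.

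Of the 8 member probes, 7 passed the filter on low signals and 1 Lrrc8e probe did not. Among the 7, 6 were lower and 1 was higher in spleen, with a median difference of -0.35, beside a median of -0.01 and 51.8% lower over all 25471 probes. The Lrrc8c probe was the 1 member whose spleen values lay wholly below its blood values, and 371 of all tested probes, 1.46%, did so. Ranges that did not overlap in either direction were found for 3.25% of the probes tested. A difference as low as that of Lrrc8c or lower was found for 97 probes, 0.381% of those tested. With limma and Benjamini-Hochberg adjustment, 0 of 25471 probes passed an adjusted p of 0.05, which is 0% of them, while 1419 had an unadjusted p under 0.05. With all 8 scanner files at the 75th percentile, 5 of the 7 probes were lower, as the first Lrrc8b probe (1.51) and Lrrc8d (0.40) turned upward and the Lrrc8e probe with a difference of 0.00 turned downward (-0.24). Blood file 1, at -6.33 for the first Lrrc8b probe, was not well above background, beside -1.44 to 0.27 in the other blood files. Since the family was chosen with this contrast in view, nothing is read from these shares.

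**Figure D2:**
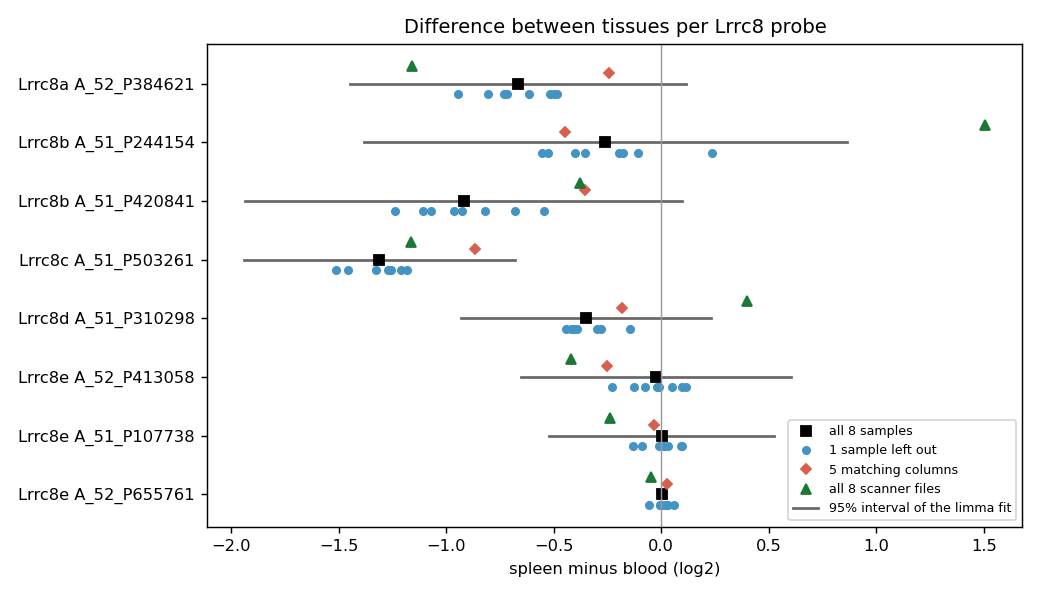
For each Lrrc8 probe, the horizontal axis gives the difference between the tissues, spleen minus blood, on the log2 scale. Black squares with lines are the 8 samples with the 95% interval of the limma fit, where the probe was tested. Blue points leave out 1 sample, and green triangles use all 8 scanner files. Red diamonds use the 5 table columns that match their scanner file, which are blood 4 and all spleen samples. Lrrc8c lies below 0 in every setting shown, and the first Lrrc8b probe runs from -0.55 to 1.51. The value of 1.51 includes blood file 1, which was not well above background for that probe. For Lrrc8c the blue points and the red diamond could not lie above 0, as its tissues did not overlap in the table.

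The size of the Lrrc8c difference moved with the samples and files used, and its sign did not in the 17 alternatives run. Because its spleen values lay wholly below its blood values, alternatives that used fewer table columns could not turn the sign. Those with the replicate number as a block repeat the reported difference. Leaving out 1 sample at a time gave -1.51 without spleen 1 to -1.18 without blood 2. Sample by sample, spleen minus blood of the same number was -0.81, -1.85, -1.56 and -1.01. Slide 2 held arrays of blood 4 and spleen 4 that match the table, and within it the Lrrc8c difference was -1.01 from 1 array of each tissue. In the same pair of arrays Lrrc8a was 0.60 higher in spleen and Lrrc8d differed by 0.033, so these genes did not keep the direction of their means there.

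For blood 1, 2 and 3 the deposited scanner file held another array than the table's column of that name, with rank correlations of 0.842, 0.852 and 0.872 where the other 5 files rounded to 1. These 3 files therefore gave other readings under the same labels. The signal of the Lrrc8c spot, before background subtraction, was 124.5, 907.5 and 500 in those 3 files and 438 in that of blood 4, and 405, 186.5, 149 and 237 in spleen. After background subtraction, on the log2 scale relative to each array's 75th percentile, the 3 blood files were at -2.28, 0.33 and -0.63, blood 4 at -0.75, and the spleen files at -1.13, -2.26, -2.46 and -2.14. Blood files 2, 3 and 4 lay above all spleen files, while blood file 1 lay among them, so that with these files Lrrc8c overlapped between the tissues.

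The slide of each scanner file is known, and 3 of the 4 slides held both tissues. Within them, Lrrc8c was lower in spleen by differences of -0.18 on slide 1, -1.39 on slide 2 and -0.97 on slide 3, from 1 or 2 blood files and 1 spleen file each. Lrrc8a differed by -2.25, 0.76 and -2.004 on the same slides. With 1 spleen file per slide, these values have no replicate check. The slides of the table's blood 1, 2 and 3 columns are not known.

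For Lrrc8a these other blood files lay above every spleen file. They gave 1.47, 1.01 and 1.05 on the same scale beside spleen files at -0.97, -0.12, -0.78 and 0.81, with blood 4 at 0.04. The mean difference from the 3 files was -1.44. Over the whole array, the spleen files lay wholly below the 3 other blood files for 6.29% of 29404 probes. For Lrrc8d the order turned: the 3 files lay at 1.68, 0.99 and 1.06, the spleen files at 1.26 to 2.09, and the difference of means was 0.57. For the first Lrrc8b probe, blood file 1 lay at -6.33 and was not well above background, while blood files 2 and 3 lay at 0.27 and -1.44.

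**Figure D3:**
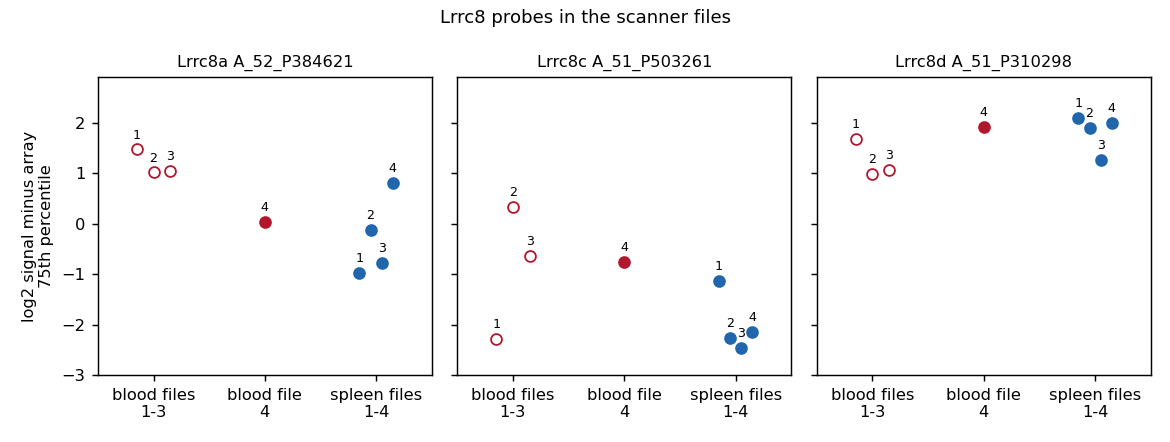
The panels plot the signal of the Lrrc8a, Lrrc8c and Lrrc8d probes in the scanner files, as log2 of the background-subtracted signal minus the 75th percentile of the array (vertical axis). Open red points are the 3 blood files that hold other arrays than the table, filled red is blood 4 and filled blue are the spleen files, with sample numbers above the points. Lrrc8a is higher in all 3 open points than in the spleen files, Lrrc8c is so in 2 of 3, and Lrrc8d overlaps.

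The cells' identity and the other cells that could be in the sort were read from marker lists. Each is given by how its tested genes moved and by log2 of the summed signal of the tested genes with 8 values, a sum that the brightest probe can carry. Of 6 tested markers of Ly-6C-high monocytes, 2 were higher and 4 lower in spleen, and the sum was 14.45 to 14.79 in blood and 14.32 to 14.89 in spleen. Itgam was 11.95 to 12.23 in blood and 11.86 to 12.29 in spleen. Ccr2, with 3 spleen values, lay at 13.89 to 14.47 in blood and 13.43 to 13.87 in spleen, a difference of -0.41 without overlap, and was not in the sum.

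Neutrophil markers were higher in spleen for 7 of 7 tested genes, and summed to 9.66 to 12.00 in blood and 15.30 to 16.76 in spleen. Ltf, Camp, Lcn2, Mpo, S100a8 and Cxcr2 did not overlap between the tissues, while Elane did. Proliferation markers were higher for 3 of 3 tested genes, with a median of 1.59. Another 3 of that list, Ccnb1, Cdk1 and Mcm2, did not pass the filter on low signals. Top2a (6.50 to 6.86 in blood, 8.80 to 10.77 in spleen) and Mki67 (8.69 to 10.537 in blood, 10.543 to 12.23 in spleen) lay wholly above blood, and the sums of 11.09 to 12.41 and 11.82 to 13.12 overlapped because Mcm5 was at 11.92 in blood 1.

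Red pulp macrophage markers were higher in spleen for 5 of 6 genes, with a median of 0.88. Vcam1 (difference 2.31), Slc40a1 (2.17, from 3 spleen values) and Spic (1.48) lay wholly above blood, while Adgre1 and Hmox1, the brightest in the sum, overlapped, as did the sums of 13.35 to 14.00 and 13.55 to 14.06. Platelet markers were lower for 8 of 9 tested genes. Their sums, 16.13 to 16.44 in blood and 15.70 to 16.36 in spleen, were mostly the Itgb3 probe. Gng11 ran from 10.73 to 11.48 in blood and from 8.51 to 9.88 in spleen. Pf4 was at 10.07 to 10.64 in blood 2, 3 and 4, at 6.39 in blood 1 and at 6.30 to 7.16 in spleen, and Gp9 differed by -1.74 with overlap.

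Summed signals of the other lists overlapped between the tissues. B cell markers, 3 of 4 tested genes higher in spleen, summed to 8.83 to 9.49 in blood and 8.98 to 9.73 in spleen. T cell markers, 4 of 4 higher, summed to 9.99 to 10.31 and 10.08 to 11.44, and NK cell markers, 2 of 2 higher, to 7.87 to 8.56 and 8.21 to 8.36. Erythroid markers, 1 of 4 higher, summed to 10.23 to 11.41 and 9.64 to 11.78, and the 1 higher gene, Alas2, lay wholly above blood with a difference of 0.87. Endothelial markers, 2 of 2 lower, summed to 8.47 to 8.99 and 8.28 to 8.68, with Pecam1 wholly below blood at -0.51. The endothelial genes Cdh5, Kdr, Tek and Emcn, the T cell genes Cd3d, Lck and Thy1 and the NK cell genes Klrb1c, Ncr1, Gzma and Prf1 did not pass the filter on low signals. With limma, no gene of any marker list passed the adjusted threshold. The part of neutrophil, proliferation, red pulp macrophage, platelet and erythroid transcripts in the Lrrc8c difference was not tested.

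Lrrc8b, Lrrc8c and Lrrc8d lie next to each other in that order on mouse chromosome 5, in RefSeq's gene table. On mm7 the probes of Lrrc8b and Lrrc8c are 121205 bases apart and those of Lrrc8c and Lrrc8d 206359 bases. Of the 3 cluster genes, Lrrc8c was the one whose tissues did not overlap in the value table, as was so for 3.25% of all probes tested. With the scanner files Lrrc8c overlapped. The next genes with a probe on the side of Lrrc8b were Gbp6 and Gbp4, which encode interferon-induced GTPases and lay below the background level in all 8 samples. On the side of Lrrc8d, D830014E11Rik differed by -0.45 (SE 0.50, limma adjusted p = 1.0), with a sign that turned with all 8 scanner files, and Zfp326, which encodes a zinc finger protein, by 0.58 (SE 0.34, adjusted p = 0.976).

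Probes with other names also lie between those of Lrrc8b and Lrrc8d, and were picked after their positions were seen. A probe named 2210408K08, a clone name that RefSeq lists among the synonyms of Lrrc8b, was 8.51 ± 0.47 in blood and 8.87 ± 0.40 in spleen (SD, n = 4 each). Its difference of 0.36 (limma adjusted p = 1.0) ran the other way from both Lrrc8b probes. A probe without a gene name on the minus strand, A_52_P724724, differed by -0.45, and C230066G23Rik was above background on 1 array.

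Around Lrrc8a, on chromosome 2, the 3 nearest genes with a probe on each side had limma adjusted p = 1.0 each. 1700084E18Rik differed by -0.38, Kyat1 by -0.25 and Spout1 by -0.10 on one side. Phyhd1 differed by 0.09, Dolk by -0.07 and Nup188, which encodes a nuclear pore protein, by 0.64 on the other, and the signs of Kyat1, Spout1, Phyhd1 and Dolk turned in at least 1 alternative.

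Promoters of the family, windows of 300 bases around a start in RefSeq (GRCm38.p6), were searched for the letters CG. Lrrc8b had 51 and Lrrc8c 44, with 78.0% G and C in each, and 0.715% and 2.25% of all 32851 promoters held as many. Lrrc8a had 32, the 2 starts of Lrrc8d had 31 and 27, and Lrrc8e had 14, against a median of 7 over all promoters. The window of Lrrc8e begins at base 4226577, inside a gene that begins at 4224268. That of Lrrc8b begins at 105415525, inside a gene that begins at 105415206. The count is a description of these windows on 1 strand.

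The family's probes differed in how alike their profiles over the 8 samples were. Likeness was the root-mean-square distance between profiles centred on their own mean, in log2 units, so that 0 means the same profile. The closest pair was the brighter pair of Lrrc8e probes at 0.217, and the pair of Lrrc8b probes was at 0.759. Between genes the closest were Lrrc8d with the dim Lrrc8e probe at 0.298 and with the Lrrc8e probe of wide span at 0.303. Lrrc8a and the second Lrrc8b probe were at 0.423, and Lrrc8c was nearest within the family to Lrrc8d, at 0.552. As the distance also falls when both profiles are flat, it does not by itself show that a pair moved together.

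The 5 profiles nearest to that of Lrrc8c among 22965 probes with 8 values were H60 at 0.230, Ezh1 at 0.243, Arhgef10l at 0.269, Arhgap24 at 0.278 and ENSMUST00000028638 at 0.311. The 1st percentile of all distances was 0.497 and the median 0.835. H60 encodes a ligand of the NKG2D receptor of NK cells, Ezh1 a histone methyltransferase of the Polycomb group and Arhgap24 a GTPase-activating protein of Rac. Their differences, which the choice by likeness to Lrrc8c fixes, were -1.05, -1.43, -0.93, -1.33 and -0.86 in that order.

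The other machinery of volume control was read from 9 lists with 73 genes, of which 69 were on the array under their names and 60 could be tested. With limma, 0 of 60 passed the adjusted threshold, and 34 were higher and 26 lower in spleen. An unadjusted p under 0.05 was found for 3 of the 60, beside 5.57% of all tested probes. The median difference of the 60 was 0.03, beside -0.01 over all tested probes. The tissues did not overlap for 3 genes, beside the 3.25% of all probes.

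Among osmolyte-handling genes, 2 of 6 were higher and 4 lower in spleen. Sgk1, a kinase induced by cell shrinkage and by glucocorticoids, had log2 signals of 11.47, 10.85, 11.17 and 11.12 in blood and 12.24, 12.19, 11.72 and 11.81 in spleen. Every spleen sample lay above every blood sample, with a difference of 0.84 (SE 0.23, limma adjusted p = 0.662). Over its 20 alternatives it ranged from 0.62 to 0.98. Slc6a12, which encodes a betaine and GABA transporter, differed by -0.29.

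Of the 17 tested genes for other chloride and anion channels, 7 lay higher and 10 lower in spleen, and their median was -0.03. Clcn6, which encodes an endosomal chloride transporter, was 7.63 ± 0.18 in blood and 8.29 ± 0.37 in spleen (SD, n = 4 each), with tissues that did not overlap. Its difference was 0.66 (SE 0.25, limma adjusted p = 0.790). Clic1 had values in 3 samples per tissue and lay lower in spleen by a difference of -0.18 (adjusted p = 1.0), and Ano10 was 0.56 higher. Of the pannexins, which form pores for ATP, Panx1 was tested and differed by 0.79 with an SE of 0.48.

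The kinases that sense volume and chloride were higher in spleen for 4 of 5 genes, with a median of 0.16, led by Stk39 at 0.62 and Wnk4 at 0.49, and none passed the test. Cotransporters and exchangers were higher for 5 of 8, with Slc12a2, the sodium-potassium-chloride cotransporter that brings ions in after shrinkage, at 0.63 and Slc12a4, a potassium-chloride cotransporter that lets them out, at 0.45. The sign of Slc12a2 turned with all 8 scanner files, where it ranged down to -0.32. Water channels were higher for 4 of 4, with Aqp3 at 0.40 and Aqp11 at 0.18. Potassium and cation channels were higher for 3 of 7, with Kcnk6 at 0.34 and Trpv2 at -0.38. In alternatives that used other files or left out a sample, the sign of Aqp3 turned in 4 of 20, that of Kcnk6 in 2 of 20 and that of Aqp11 in 1 of 20.

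Of the pathways tied to LRRC8 transport, the cGAMP and STING list had 4 of 5 genes higher in spleen and a median of 0.41. Sting1 itself was not on the array under that name. Enpp1, the enzyme that breaks down cGAMP outside the cell, differed by 1.02 (SE 0.43, limma adjusted p = 0.860), and its sign turned when all 8 scanner files were used. Slc19a1, a folate carrier that also imports cyclic dinucleotides, differed by -0.64 (adjusted p = 0.937). NLRP3 inflammasome genes were higher for 4 of 7, with a median of 0.03, and Casp1 could not be tested. Il1b differed by 0.46 and Nlrp3 by -0.31, and the sign of Nlrp3 turned with all 8 scanner files.

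**Figure D4:**
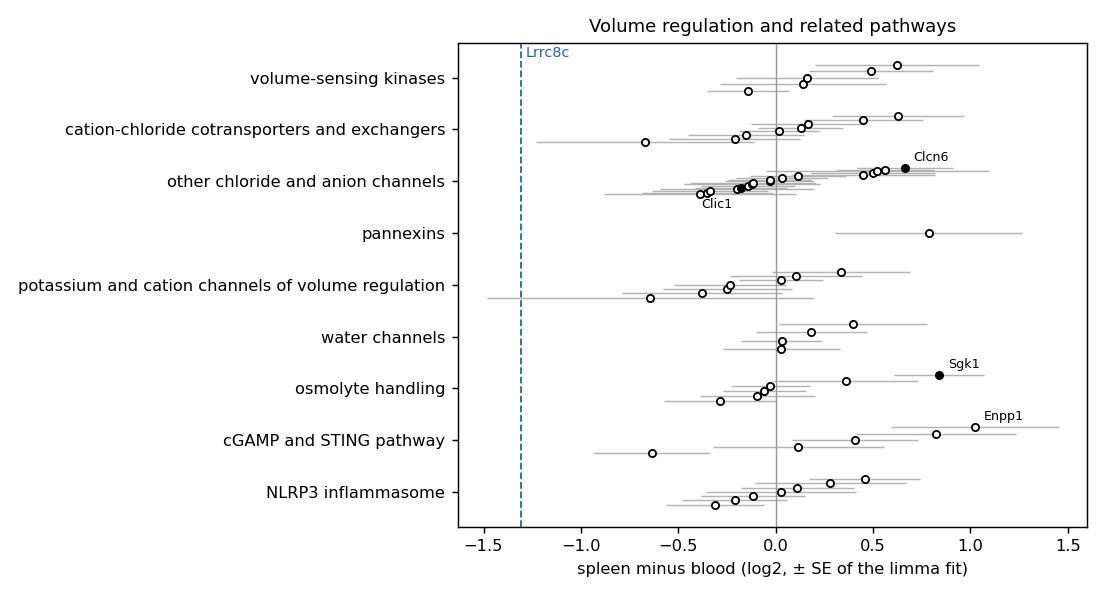
Each point is 1 of the 60 tested genes, placed by its difference between the tissues (spleen minus blood, log2, horizontal axis) within its list (vertical axis), with a line for ± 1 SE of the limma fit. Filled points are the 3 genes whose tissues did not overlap (Sgk1, Clcn6 and Clic1), Enpp1 is named as the highest difference, and the dashed line marks Lrrc8c at -1.31, lower than every point.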

How the data were processed

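Per the file headers, spot intensity was read with Agilent Feature Extraction 9.5.1.1 from 1-colour Cy3 arrays, after amplification of 5 ng of RNA per the labels. The authors deposited a table of log2 values; the submitters' processing notes list limma. Its scale and background treatment are not stated. On the 5 matching arrays it ranked probes as the median spot signal did, and its column medians were about 7.31, so it was read as quantile-normalized signal without background subtraction, which narrows differences of dim probes. No source used here says which deposit holds the intended blood 1 to 3.

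The table was fitted per probe with limma 3.58.1 (lmFit, eBayes; R 4.3.3), spleen against blood, with Benjamini-Hochberg adjustment at 0.05, for probes at or above 6.80 on at least 4 arrays and with at least 3 values per tissue. From this level up, at least 95% of probes in each step were well above background. Where a listed gene had several probes, the brightest stood for it. The fit was tested on simulated data. Accessions named 22951 of 41174 probes (55.7%) through RefSeq, and the rest kept the scanner file's name. Probes well above background numbered 26539 to 29572 on matching arrays. The number of arrays sets the precision.

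All Lrrc8 probes are named. In each volume regulation list the named genes are the 2 with the smallest p and any whose tissues do not overlap. Named too are the 3 nearest genes on each side of Lrrc8c and Lrrc8a, the 5 profiles most like Lrrc8c, and genes of the marker lists, the latter picked after their values were seen. Members, lists and rule were chosen with earlier results of these data known. Alternatives were the scanner files with 2 background treatments, the matching arrays alone, other filters and fits, and each sample left out.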

Additional observations from a re-analysis of the deposited data

Results flagged for a closer look

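For Lrrc8c, spleen 1 stood apart from the other 3 spleen samples, at a log2 signal of 8.37 where the nearest other was 7.61, a gap of 0.8294 of the group's range. For Lrrc8d, spleen 3 stood apart at 10.25 where the nearest other spleen sample was 11.001, a gap of 0.836 of the range. Of 16 groups of 4 samples examined, 2 were set apart in this way, and chance sets apart about 1 in 20.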

How the results depend on the processing

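Lrrc8c kept its sign in all 17 alternatives, but those that used fewer table columns could not turn it, as its tissues did not overlap there. Its difference ran from -1.51 to -0.85: -0.85 with normexp and quantile normalization of the scanner files and -0.87 with the matching table columns. Of blood, those columns hold only blood 4. The other values that moved were, within the slide of blood 4 and spleen 4, 0.60 for Lrrc8a, 0.60 for the second Lrrc8b probe and 0.033 for Lrrc8d. With all scanner files at the 75th percentile they were 1.51 for the first Lrrc8b probe, 0.40 for Lrrc8d and -0.42 for the brightest Lrrc8e probe. With normexp they were 0.73 and -0.10 for the Lrrc8b probes and 0.36 for Lrrc8d. With the 3 other blood files alone, a setting chosen after seeing the data, they were -1.44 for Lrrc8a, 2.16 for the first Lrrc8b probe, 0.57 for Lrrc8d, and -0.45 and -0.28 for the brighter Lrrc8e probes. The cause of these shifts was not tested. For the first Lrrc8b probe, the scanner settings named here include blood file 1, which was not well above background. It lay at -6.33 relative to the 75th percentile.

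Leaving out 1 sample gave -0.94 to -0.48 for Lrrc8a, -0.55 to 0.24 and -1.24 to -0.55 for the Lrrc8b probes, -1.51 to -1.18 for Lrrc8c, -0.44 to -0.14 for Lrrc8d, and -0.23 to 0.11, -0.13 to 0.10 and -0.06 to 0.06 for the Lrrc8e probes.

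No probe passed limma's adjusted threshold in the reported fit, where 1419 had an unadjusted p under 0.05. Alternatives gave 5 with the scanner files at the 75th percentile, 5 with normexp, 7 with a mean over a gene's probes, 9 with an intensity trend and robust variance, and 0 to 2 without 1 sample. With the replicate number as a block 1 probe passed, and 7 as a random block. Same-numbered samples correlated at 0.0719 to 0.119 after group means were removed. Each sample correlated best with its own number, a hint of pairing that the labels do not settle. The numbers were not taken as pairs because no label ties a number to a mouse. No volume regulation gene passed in any alternative with more than 1 blood array. The matching arrays alone held only 1 from blood. Within 1 slide a count was not possible, as each tissue had 1 array. Probes near 6.80 have compressed differences.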
